A study of Caenorhabditis elegans with 2 samples.

Results

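The genes described here are the ABC transporter genes of Caenorhabditis elegans that carry the prefixes pgp-, haf-, mrp-, pmp-, abt- and wht-. They were taken by name from the protein-coding genes of the WBcel235 annotation, with haf-4 and haf-9 left out. The rule gave 45 of 19973 genes, and no measured value entered it. There are 14 pgp, 6 haf, 8 mrp, 5 pmp, 4 abt and 8 wht genes.

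RNA 3' ends were counted in 2 libraries, so there was 1 library per group and no replicate. The first library came from sorted nuclei, labelled as intestine with nuclear RNA as the molecule. The other came from input nuclei of mixed tissues, labelled total RNA. Both came from strain JM149, a strain whose genotype the labels do not give, grown at 25 °C as liquid cultures of mixed stages and strained to enrich adults. The labels do not name the cells that carried the fluorescent mark. The molecule label differs between the libraries, so it cannot be told apart from the sorting. In such bulk libraries fewer cells of a type and less RNA per cell cannot be told apart either.

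ABC transporters are membrane proteins that use ATP to move substrates such as lipids, metals, peptides and foreign compounds across membranes. In C. elegans the pgp genes encode full-length transporters of the P-glycoprotein type. The haf genes encode shorter proteins of the same subfamily, with a single membrane domain and a single ATP-binding domain, that work in pairs. The mrp genes encode relatives of the human multidrug resistance-associated proteins, and the pmp genes encode relatives of the peroxisomal fatty acid transporters. The abt and wht genes encode relatives of the ABCA lipid transporters and of Drosophila White. The worm intestine takes up food and also handles toxins, and several of these genes are known to act there.

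The sorted library held 4709432 reads and the input library 9243831. Of these, 4529853 sorted reads and 8988617 input reads fell in a protein-coding gene on its strand. Levels are given as reads per 1000000 gene-assigned reads (RPM). RPM was not divided by gene length, because reads were counted at 3' ends and not along the transcript. Some reads ended in introns or coding sequence, so 1 counted end per transcript is not assured. A dependence of RPM on gene length was not tested. The 45 genes together held 3488 sorted reads, which is 770.0 RPM, and 3262 input reads, which is 362.9 RPM. For a gene with 0 reads the limit was set at 3 reads, equal to 0.662 RPM in sorted nuclei and to 0.334 RPM in input nuclei. All intervals are exact 95% intervals (Poisson for a level, Clopper-Pearson for a ratio or share). They cover counting error of reads only. Reads amplified by PCR are not independent molecules, so the intervals can be too narrow even for that error. With 1 library per group no test between conditions could be made.

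The label of the sorted library was examined with marker genes. Of 12 intestine markers, 9 were called higher in sorted nuclei and none lower, and no intestine marker was at 0. The gut esterase gene ges-1 was at 862.1 RPM in sorted nuclei and 264.8 RPM in input nuclei, and the gut protease gene cpr-1 was at 4583 and 2144 RPM. The call of cpr-1 was lost with TMM and with median-of-ratios scaling, which left 8 of 12. The actin gene act-5 and the yolk genes vit-2 and vit-6 were not called, with sorted over input ratios of 1.57, 0.737 and 0.757. The summed level of the 12 was 19730 RPM in sorted nuclei and 13580 RPM in input nuclei. Markers of other tissues were still present in the sorted library. The 6 hypodermis markers summed to 1560 RPM in sorted nuclei and 3944 RPM in input nuclei, the 6 muscle markers to 2659 and 3589 RPM, and the 6 germ line markers to 2440 and 5129 RPM. The cuticle collagen gene col-19 was at 679.3 RPM in sorted nuclei, against 3170 RPM in input nuclei, and 4 of 6 hypodermis markers were called lower. Of the sperm markers, 4 of 5 were called lower as well. Among all genes with at least 20 reads, 13.6 percent were called higher and 4.14 percent lower. The muscle myosin gene unc-54 was called higher, at 211.3 RPM in sorted nuclei and 79.3 RPM in input nuclei. The part of these other tissues in the values below was not tested.

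Of the 45 ABC transporter genes, 31 had at least 20 reads over both libraries and are called measured. A gene was called higher when the lower bound of its sorted over input ratio passed 2, and lower when the upper bound fell below the inverse of 2. By this rule 13 measured genes were called higher, 1 was called lower and 17 were neither. Over all 10689 measured genes the same rule called 13.6 percent higher and 4.14 percent lower, against 41.9% and 3.23% of the measured ABC transporter genes. Among the 8503 genes in the same range of reads (27 to 1157), the shares were 13.9 percent higher and 3.36 percent lower. At a bound of 4-fold, 3 ABC transporter genes were called higher, pgp-5, mrp-3 and abt-2, against 4.69 percent of all measured genes. None was called lower at 4-fold, against 0.309 percent of all measured genes.

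The median log2 ratio of the 31 genes was 1.44, against 0.04 over all measured genes. The ratio was above 1 for 25 genes and below 1 for 6. With TMM scaling, which moved every log2 ratio by -0.14, 10 of the 31 were called higher, 1 was called lower, and 24 had a ratio above 1. The shares over all measured genes with TMM scaling were 12.04% higher and 5.80% lower. There were 8 measured genes with under 20 input reads, and 3 of them were called higher (pgp-1, pgp-2 and pmp-4). With at least 20 input reads required, 10 of 23 ABC transporter genes were called higher and 1 lower, against 10.8 percent higher and 4.89 percent lower of all genes.

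**Figure D1:**
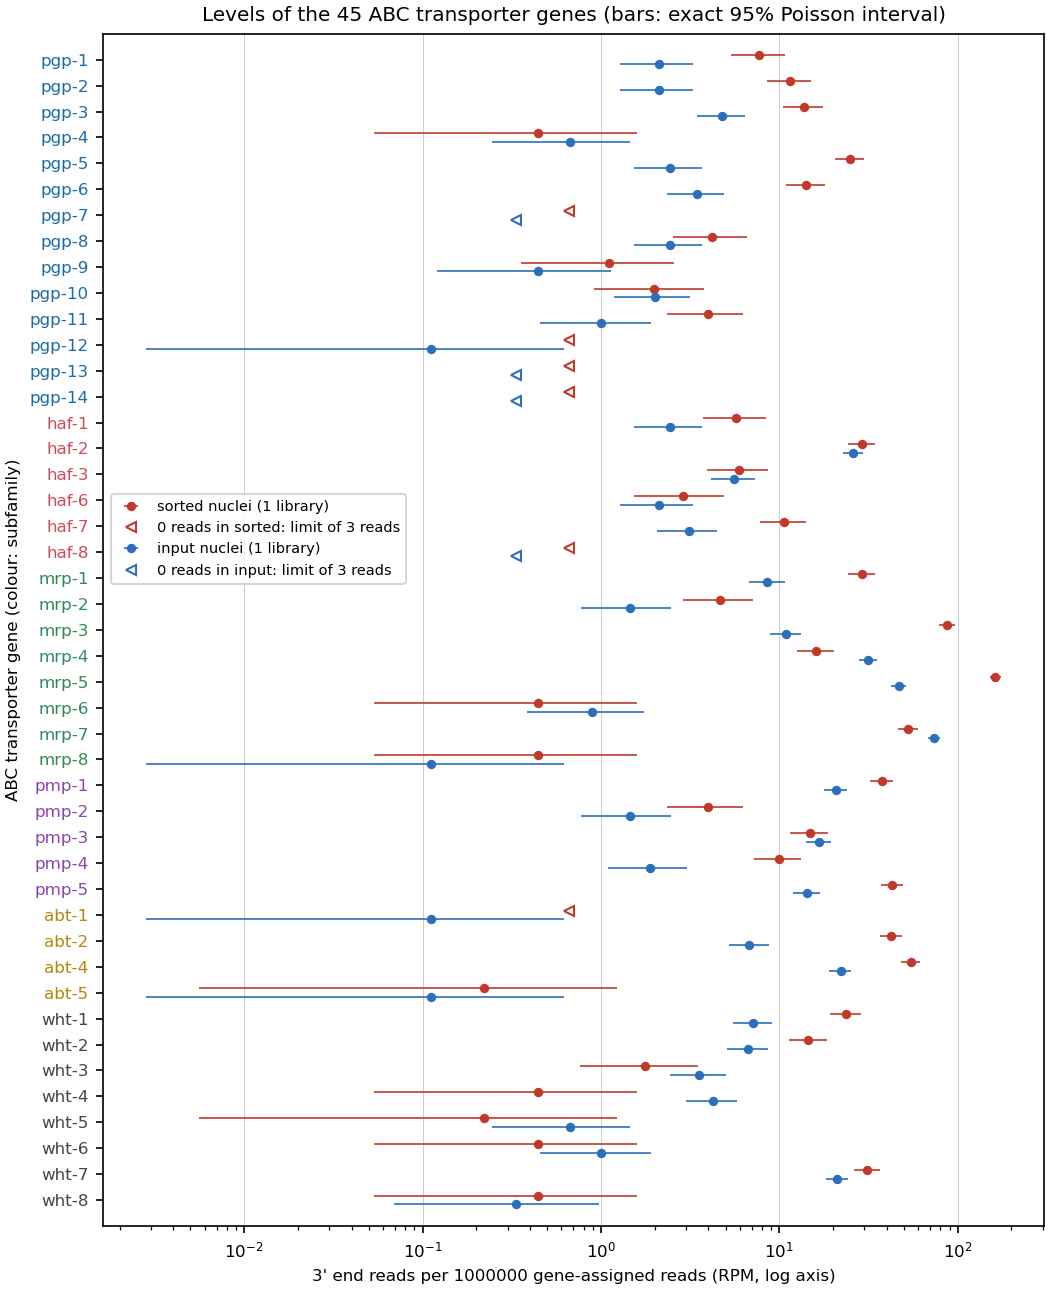
Level of each of the 45 ABC transporter genes in RPM on a log axis, with sorted nuclei in red and input nuclei in blue (1 library each) and exact 95% Poisson intervals as bars. Open triangles mark the limit for a gene with 0 reads, 0.662 RPM in sorted nuclei and 0.334 RPM in input nuclei. The highest point is mrp-5 in sorted nuclei at 162.7 RPM.

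**Figure D2:**
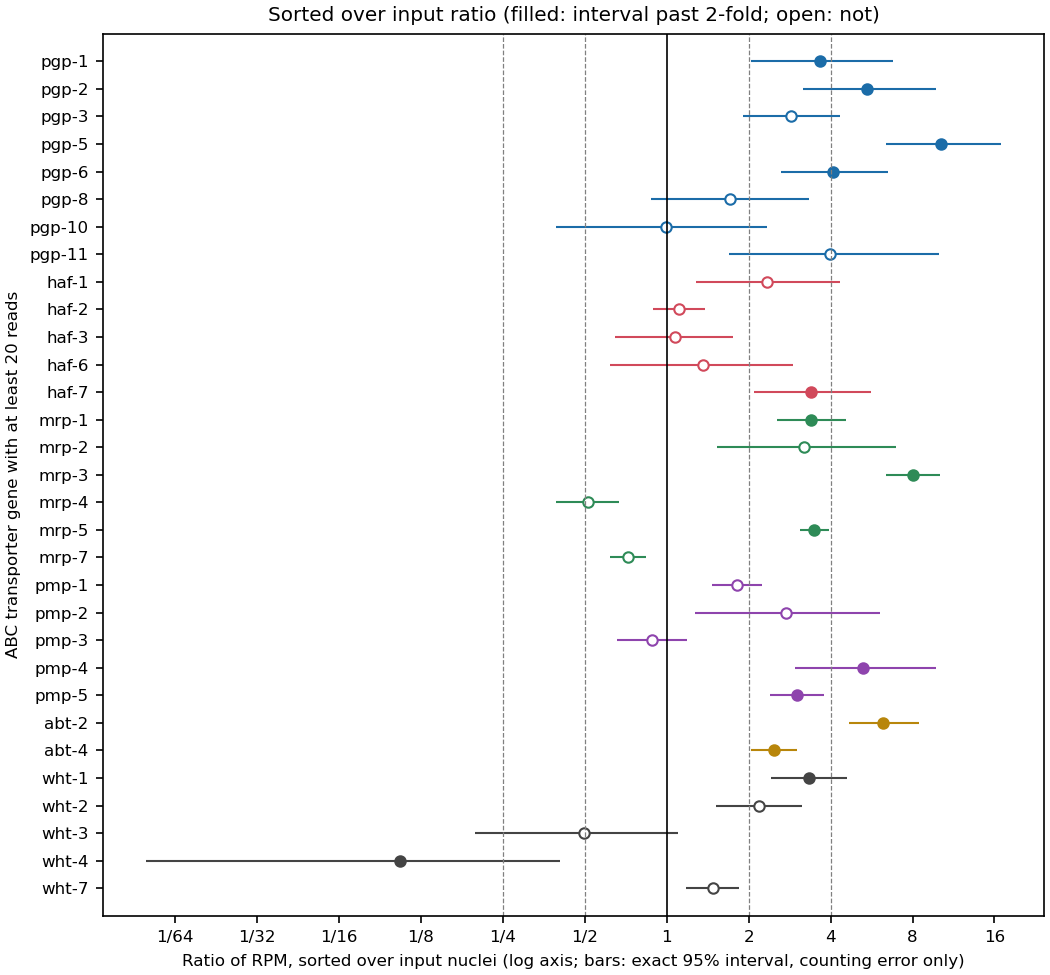
Sorted over input ratio of each measured ABC transporter gene on a log2 axis, with its exact 95% interval. The intervals of 13 genes lie wholly above 2-fold, from abt-4 at 2.48 to pgp-5 at 10.2, and only wht-4 at 0.104 has its interval wholly below the lower 2-fold line.

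The order of levels differed between the libraries. In sorted nuclei mrp-5 was highest, followed by mrp-3, abt-4, mrp-7, pmp-5, abt-2 and pmp-1. In input nuclei mrp-7 was highest, followed by mrp-5, mrp-4, haf-2, abt-4, wht-7 and pmp-1. The sorted levels of mrp-5 (151.2 to 174.9 RPM) and mrp-3 (78.8 to 96.2 RPM) did not overlap, nor did those of mrp-3 and abt-4 (47.9 to 61.8 RPM). The sorted level of abt-4 overlapped that of mrp-7 (46.3 to 59.9 RPM), so their order is not resolved by counting error. In input nuclei mrp-7 (67.8 to 79.1 RPM) and mrp-5 (42.4 to 51.4 RPM) did not overlap.

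The mrp genes held the most reads, 353.4 RPM in sorted nuclei and 173.3 RPM in input nuclei over all 8 genes. Of these, 6 were measured, 3 were called higher and none lower, against 13.6 percent higher and 4.14 percent lower of all measured genes. The median log2 ratio of the mrp genes was 1.71. The gene mrp-5 encodes an exporter that moves heme out of the intestine. It lies at chrX:14938502-14946317 on the minus strand. It had 737 reads in sorted nuclei and 420 in input nuclei, or 162.7 and 46.7 RPM. The sorted level was 3.48 times the input level (3.09 to 3.94).

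The gene mrp-3 (chrX:15929955-15939324, minus strand) had 395 reads in sorted nuclei and 98 in input nuclei, or 87.2 and 10.9 RPM. Its ratio of 8.00 (6.40 to 10.1) was the second highest among the measured ABC transporter genes. It ranked 2 of 45 in sorted nuclei and 10 of 45 in input nuclei. The gene mrp-1, known for resistance to heavy metals, had 132 reads in sorted nuclei and 77 in input nuclei, or 29.1 and 8.57 RPM. Its ratio was 3.40 (2.55 to 4.57). Beside it on X lies mrp-2, 3610 nt away on the same strand, with 21 reads in sorted nuclei and 13 in input nuclei. The ratio of mrp-2 was 3.21 (1.53 to 6.97), which did not pass the rule. Most of its sorted reads ended in introns, and near the annotated end it had 5 sorted and 13 input reads, a ratio of 0.797 (0.222 to 2.38).

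Both of the remaining measured mrp genes were on the other side of 1. The gene mrp-4, which acts in the lipid content of gut granules, had 73 reads in sorted nuclei and 282 in input nuclei, or 16.1 and 31.4 RPM. Its ratio of 0.514 (0.392 to 0.667) was below 1 beyond counting error and did not pass the 2-fold rule. With only positions near an annotated end the ratio of mrp-4 was 0.829 (0.524 to 1.28), which included 1. The gene mrp-7, whose loss raises the toxicity of methylmercury in worms, had 239 reads in sorted nuclei and 659 in input nuclei, or 52.8 and 73.3 RPM. Its ratio was 0.720 (0.618 to 0.836). The genes mrp-6 and mrp-8 were under the minimum, with 2 sorted reads each and with 8 and 1 input reads.

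The pgp genes, at 83.7 RPM in sorted nuclei and 21.6 RPM in input nuclei over all 14 genes, had the largest ratio of summed levels of the 6 subfamilies, 3.88. Of these, 8 were measured, 4 were called higher and none lower, against 13.6 percent higher and 4.14 percent lower of all measured genes. The median log2 ratio of the pgp genes was 1.90. The gene pgp-5 is known to act in resistance to bacterial infection and to heavy metals. It lies at chrX:10854216-10859297 on the minus strand. It had 113 reads in sorted nuclei and 22 in input nuclei, or 24.9 and 2.45 RPM. Its ratio of 10.2 (6.41 to 16.9) was the highest of all measured ABC transporter genes.

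The gene pgp-2, needed to form the lysosome-related gut granules, had 52 reads in sorted nuclei and 19 in input nuclei, or 11.5 and 2.11 RPM. Its ratio was 5.43 (3.16 to 9.73), and 13.02 (5.82 to 34.3) with only the 44 sorted and 7 input reads near an annotated end. The gene pgp-6 had 64 reads in sorted nuclei and 31 in input nuclei, or 14.1 and 3.45 RPM, with a ratio of 4.10 (2.63 to 6.51). With only the 20 sorted and 10 input reads near an annotated end, the ratio of pgp-6 was 4.14 with a wider interval (1.85 to 9.91), so that its call was lost. The gene pgp-1 had 35 reads in sorted nuclei and 19 in input nuclei, or 7.73 and 2.11 RPM. Its ratio of 3.66 (2.03 to 6.76) had the lower bound nearest to 2 among the calls, and the call was lost with TMM scaling (1.84 to 6.13).

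The nearest genes outside the rule were pgp-3, with a ratio of 2.86 (1.91 to 4.33), and pgp-11, with 3.97 (1.69 to 10.0). The gene pgp-3 is known for resistance to colchicine and chloroquine, and had 62 reads in sorted nuclei and 43 in input nuclei. The gene pgp-11 had 18 reads in sorted nuclei and 9 in input nuclei, so its interval is wide. For pgp-8 the ratio was 1.71 (0.877 to 3.32), and for pgp-10 it was 0.992 (0.393 to 2.33).

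The other 6 pgp genes were under the minimum. There were 2 sorted and 6 input reads for pgp-4, and 5 sorted and 4 input reads for pgp-9. The excretory-cell gene pgp-12 had 0 sorted reads and 1 input read. Both pgp-7 and pgp-13 had 0 reads in either library, and so did pgp-14, which is known from the pharynx. Several pgp genes are neighbours on X. In the row pgp-5, pgp-8, pgp-7 and pgp-6, all on the minus strand, the gaps are 3, 924 and 963 nt. The ratios in that row were 10.2 for pgp-5, 1.71 for pgp-8 and 4.10 for pgp-6, with no read in pgp-7. Likewise pgp-3 and pgp-4 are 721 nt apart and had 105 and 8 reads over both libraries. Genes of such similar sequence can share reads, and no source used here says how reads with several matches were handled.

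The abt genes stood at 97.1 RPM in sorted nuclei and 29.0 RPM in input nuclei. Of 4 genes, 2 were measured and both were called higher, against 13.6 percent of all measured genes. The gene abt-2 (chrI:2255921-2272866, minus strand) had 192 reads in sorted nuclei and 61 in input nuclei, or 42.4 and 6.79 RPM, with a ratio of 6.25 (4.66 to 8.47). The gene abt-4 had 247 reads in sorted nuclei and 198 in input nuclei, or 54.5 and 22.0 RPM, with a ratio of 2.48 (2.05 to 3.0). The main peak of abt-4 lay 3 nt past its annotated end, and with no downstream extension 62 sorted and 87 input reads remained, at a ratio of 1.4 (0.994 to 1.96). The call of abt-4 was also lost with TMM scaling, at 2.24 (1.85 to 2.72). The others were nearly unread, with 0 sorted reads and 1 input read for abt-1, and 1 read in each library for abt-5.

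All 5 pmp genes were measured, and together they reached 109.1 RPM in sorted nuclei and 55.0 RPM in input nuclei. Of these, 2 were called higher and none lower, against 13.6 percent higher and 4.14 percent lower of all measured genes. The median log2 ratio of the pmp genes was 1.44. The gene pmp-5 had 194 reads in sorted nuclei and 128 in input nuclei, or 42.8 and 14.2 RPM, with a ratio of 3.01 (2.39 to 3.79). The gene pmp-4 had 45 reads in sorted nuclei and 17 in input nuclei, or 9.93 and 1.89 RPM. Its ratio was 5.25 (2.95 to 9.79).

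The ratio of pmp-1 was 1.81 (1.46 to 2.24), above 1 beyond counting error and not past the rule. Its neighbour pmp-2, 285 nt away on the same strand of chromosome II, had 18 sorted and 13 input reads and a ratio of 2.75 (1.27 to 6.10), or 4.14 (1.77 to 10.5) with only positions near an annotated end. The gene pmp-3 is often used as a reference gene in worm quantitative PCR. It had 67 reads in sorted nuclei and 150 in input nuclei, or 14.8 and 16.7 RPM, and its ratio of 0.886 (0.654 to 1.19) included 1.

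The 6 haf genes summed to 54.1 RPM in sorted nuclei and 39.3 RPM in input nuclei, a ratio of 1.38. With haf-4 and haf-9 added the ratio was 2.02. Of the 6, 5 were measured, 1 was called higher and none lower, against 13.6 percent higher and 4.14 percent lower of all measured genes. The median log2 ratio of the haf genes was 0.46. The gene haf-2, which is needed for efficient RNA interference, was the most read, with 131 reads in sorted nuclei and 234 in input nuclei, or 28.9 and 26.0 RPM. Its ratio of 1.11 (0.890 to 1.38) included 1. For haf-3 the ratio was 1.07 (0.645 to 1.75), and 2.06 (1.06 to 4.01) with no downstream extension. The gene haf-1, a mitochondrial peptide exporter that acts in the unfolded protein response of that organelle, had a ratio of 2.35 (1.28 to 4.34).

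The gene haf-7 was called higher, with 48 reads in sorted nuclei and 28 in input nuclei, or 10.6 and 3.12 RPM, at a ratio of 3.40 (2.09 to 5.63). Most of its sorted reads ended inside the coding sequence, and without positions in coding sequence and introns its ratio was 1.46 (0.678 to 3.08). The call of haf-7 was also lost with TMM scaling. For haf-6, another gene needed for RNA interference, the ratio was 1.36 (0.616 to 2.90), and most of its reads lay in introns. There was no read for haf-8 in either library. The left-out pair haf-4 and haf-9, whose products work together on gut granules, had ratios of 3.99 (3.10 to 5.17) and 3.80 (2.24 to 6.59) under the same counting.

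The wht genes, at 72.6 RPM in sorted nuclei and 44.7 RPM in input nuclei, held calls in both directions. Of the 8, 5 were measured, 1 was called higher and 1 lower, against 13.6 percent higher and 4.14 percent lower of all measured genes. The median log2 ratio of the wht genes was 0.56. That median changed sign with the counting: it was -0.19 with at least 10 reads, -0.22 with at least 1 read, -0.18 with each position counted once and -1.27 with only positions near an annotated end. With at least 50 reads it was 1.13. The gene wht-1, also needed for RNA interference, had 107 reads in sorted nuclei and 64 in input nuclei, or 23.6 and 7.12 RPM. Its ratio was 3.32 (2.41 to 4.60). The gene wht-4 (chrII:3278934-3281713, plus strand) was the only ABC transporter gene called lower. It had 2 reads in sorted nuclei and 38 in input nuclei, or 0.442 and 4.23 RPM, and its ratio was 0.104 (0.0122 to 0.404).

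The most read wht gene was wht-7, with 141 reads in sorted nuclei and 190 in input nuclei, or 31.1 and 21.1 RPM. Its ratio of 1.47 (1.18 to 1.84) was above 1 beyond counting error and below the 2-fold rule. For wht-2 the ratio was 2.18 (1.52 to 3.15), and for wht-3, with 8 sorted and 32 input reads, it was 0.496 (0.198 to 1.10). With TMM scaling the interval of wht-3 was below 1 (0.179 to 0.996). The remaining wht genes were under the minimum, with 1 to 2 sorted reads and 3 to 9 input reads each for wht-5, wht-6 and wht-8.

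**Figure D3:**
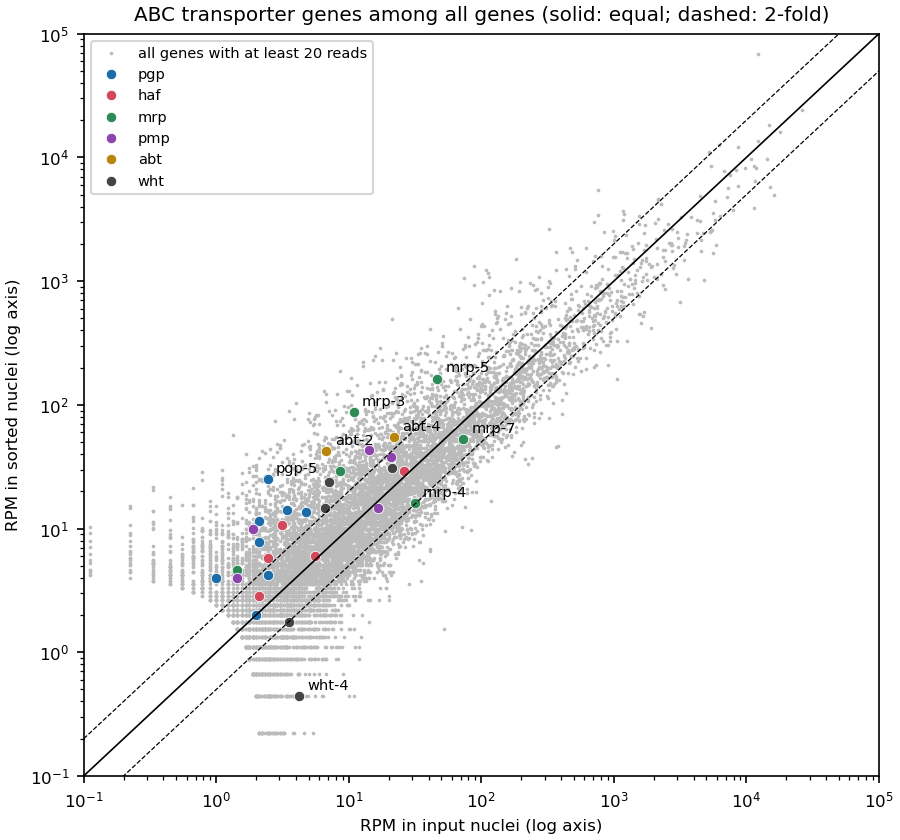
RPM in sorted nuclei against RPM in input nuclei for all measured genes (grey) and the measured ABC transporter genes (coloured by subfamily), both axes logarithmic, so that genes with 0 reads in a library are not drawn. The solid line marks equal levels and the dashed lines 2-fold. Of the ABC transporter genes, mrp-3, pgp-5 and abt-2 lie farthest above the solid line, and wht-4 lies farthest below it.

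Of the 45 genes, 16 lie on X and 10 of these were measured. Of those 10, 5 were called higher (mrp-1, mrp-3, mrp-5, pgp-5 and pgp-6) and none lower, against 15.6 percent higher and 4.13 percent lower of all measured genes on X. Of the 21 measured genes on the autosomes, 8 were called higher and 1 lower, against 13.2 percent higher and 4.15 percent lower of all measured autosomal genes. The median log2 ratio was 1.71 on X and 1.23 on the autosomes, against 0.15 for all measured genes on X and 0.03 for all on the autosomes. The difference between X and the autosomes was not tested.

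The 14 genes under the minimum together held 17 sorted and 40 input reads. No read was found in either library for 4 of them (pgp-7, pgp-13, pgp-14 and haf-8), and 6 had 0 sorted reads. At this depth their levels cannot be compared between the libraries, and a count of 0 does not show that a gene was silent.

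Genes outside these prefixes were counted in the same way for comparison. The list held 10 other ABC genes, including ced-7, which acts in the engulfment of dying cells, and the abcf and abce genes, whose products act in translation and not as transporters. Of these, 6 were measured, none was called higher or lower, and their median log2 ratio was -0.51. Over all measured genes 13.6 percent were called higher and 4.14 percent lower, so the lack of calls among 6 genes does not set them apart. Most of the 6 were translation genes (abce-1, abcf-1, abcf-2 and abcf-3), so the median is not that of other transporters. The rest were ced-7, with a ratio of 0.834 (0.684 to 1.01), and abtm-1. With TMM scaling 1 of the 6 was called lower, against 5.80% of all measured genes. The ratios of the 6 lay between 0.422 for abce-1 and 1.55 for abtm-1, a relative of the mitochondrial iron-sulphur transporters. The gene abcf-2 was at 147.0 RPM in sorted nuclei and 205.4 RPM in input nuclei. In sorted nuclei its interval (136.1 to 158.6 RPM) overlapped that of mrp-5, and all other ABC transporter genes of the 45 were below it. In input nuclei all 45 were below it.

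Genes of peroxisome biogenesis were listed because pmp genes belong to the family of peroxisomal ABC transporters. Of 11 genes, 10 were measured, 5 were called higher and none lower, with a median log2 ratio of 1.48. Over all measured genes 13.6 percent were called higher and 4.14 percent lower. The called genes included prx-13, which encodes a docking protein of the import machinery, at 99.1 RPM in sorted nuclei and 30.5 RPM in input nuclei. The import receptor gene prx-5 was at 23.2 and 5.79 RPM, and prx-3 at 45.5 and 18.4 RPM. The call of prx-3 was lost with TMM and with median-of-ratios scaling. The most read gene of the list, prx-14, had a ratio of 0.916 (0.870 to 0.964) and was not called.

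Regulators of the response to foreign compounds were listed because several ABC transporter genes act on such compounds. Of 12 genes, 9 were measured, 6 were called higher and none lower, with a median log2 ratio of 1.53. Over all measured genes 13.6 percent were called higher and 4.14 percent lower. With TMM scaling 3 were called higher, and with median-of-ratios scaling 4, against 12.04% and 12.31% of all measured genes. The calls lost with TMM scaling were those of nhr-49, nhr-86 and wdr-23. The Mediator subunit gene mdt-15 was at 38.2 RPM in sorted nuclei and 13.2 RPM in input nuclei, and the nuclear receptor gene nhr-49 at 78.4 and 31.0 RPM. The hypoxia factor gene hif-1 was at 54.5 and 19.4 RPM. The oxidative stress regulator gene skn-1 was not called, with a ratio of 1.18 (0.939 to 1.49), whereas wdr-23, which encodes a repressor of SKN-1, was at 15.5 RPM in sorted nuclei and 4.90 RPM in input nuclei and was called higher.

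The median log2 ratio of the ABC transporter genes, 1.44, lay between that of the intestine markers, 1.69, and that of the other tissues' lists. Those medians were 0.47 for the excretory cell, 0.38 for neurons, -0.10 for body wall muscle and -0.75 for the pharynx. They were -1.02 for the germ line, -1.53 for the hypodermis and -1.59 for sperm. One gene was called higher in each of the excretory cell (exc-5), neuron (snb-1), muscle (unc-54), germ line (gld-1) and hypodermis (rol-6) lists, and the call of rol-6 was lost with TMM scaling. The lists were described by counts and medians only.

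**Figure D4:**
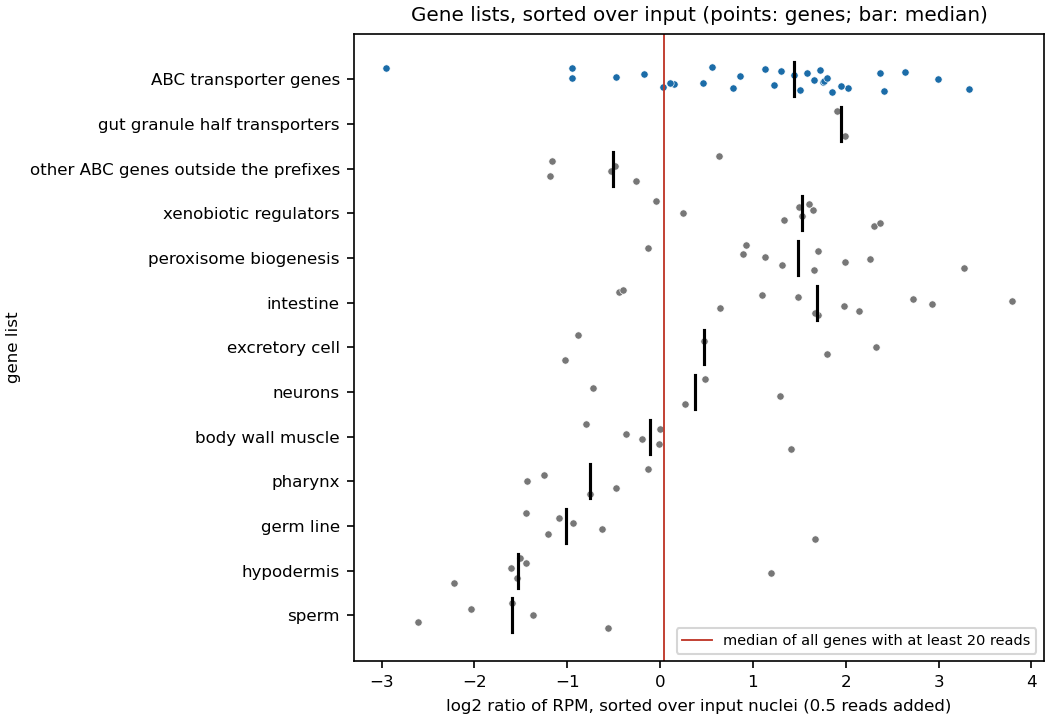
Log2 sorted over input ratio of each measured gene, by list, with the list median as a black bar and the median of all measured genes (0.04) as a vertical line. The ABC transporter genes spread from wht-4 at -2.96 to pgp-5 at 3.32 around a median of 1.44.

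The positions of the 3' ends were then compared within genes. The deposited positions were offset from the annotation by a nearly constant distance in each stretch of 0.5 Mb, and distances below are given after that offset was added, with negative values upstream of the gene's last annotated end unless stated otherwise. In 21 of the 31 measured ABC transporter genes the most read position lay within 24 nt of an annotated end. Over all 45 genes, 77.4% of sorted reads (75.9 to 78.8) and 76.2% of input reads (74.7 to 77.6) lay within 24 nt of an annotated end. Over all genes these shares were 74.5% of sorted reads and 77.8% of input reads. For the measured ABC transporter genes without mrp-3, mrp-5 and mrp-7 they were lower, 68.6% of sorted reads (66.6 to 70.6) and 66.2% of input reads (64.1 to 68.3).

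Reads ending in introns made up 3.41% of the sorted reads of the ABC transporter genes (2.83 to 4.07) and 1.84% of their input reads (1.41 to 2.36). For all genes the intron shares were 0.927% in sorted nuclei and 0.395% in input nuclei. The share was higher in sorted nuclei in both cases, beyond counting error. In pmp-5, 17 of 194 sorted reads and 2 of 128 input reads ended in introns. In mrp-2, 12 of 21 sorted reads and 0 of 13 input reads ended in an intron at -3551 nt, while 5 of 21 sorted reads and 13 of 13 input reads ended at -13 nt. All 19 input reads of haf-6 ended in introns, and 9 of its 13 sorted reads did. How priming within A-rich stretches was handled is not stated in any source used here. Its part in these reads was not tested.

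Site use was compared in the 20 ABC transporter genes that reached 20 reads in both libraries, of which 12 had 2 or more 3' end sites that took at least 5% of the reads. A site was called shifted when its share differed by at least 20 percentage points with the intervals apart. None of the 12 genes had a shifted site, against 16 percent of the 3967 genes with 2 or more sites. The rule is harder to pass with few reads, and the 3967 genes were not matched to the 12 for reads. With a difference of 10 points, 4 of the 12 passed (mrp-7, pmp-3, abt-2 and wht-1), against 26.9 percent of the 3967 genes. With sites of 10 nt in place of 24 nt, 2 of 15 genes passed (pmp-5 and wht-2), against 15.5 percent of 4222 genes.

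In abt-2 the site at -4 nt took 82.8% of sorted reads and 70.5% of input reads, while the site at -220 nt took 2.08% (0.571 to 5.25) of sorted reads and 18.0% (9.36 to 30.0) of input reads. In wht-1 the site at -55 nt took 68.2% of sorted reads and 81.3% of input reads. A site of wht-1 at 2 nt took 12.1% of sorted reads (6.63 to 19.9) and 0 of 64 input reads. In pmp-3 a site at -211 nt took 11.9% of sorted reads (5.30 to 22.2) and 0.667% of input reads (0.0169 to 3.66). In mrp-7 the main site at -9 nt took 85.4% of sorted reads (80.2 to 89.6) and 97.4% of input reads (95.9 to 98.5). The rest of the mrp-7 reads included a position in coding sequence at -17064 nt, with 16 of 239 sorted reads and 2 of 659 input reads. The offset of the stretch that holds mrp-7 was 4611 nt, far from the -7 to 120 nt of most stretches. In that stretch 21.2% of positions lay within 3 nt of the offset.

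Among the 12 genes, the largest differences in share were in haf-3 and haf-7, which had few reads and overlapping intervals. In haf-3 the site at -27 nt took 59.3% of sorted reads (38.8 to 77.6) and 26.0% of input reads (14.6 to 40.3). In haf-7 a site in the coding sequence at -408 nt took 64.6% of sorted reads (49.5 to 77.8) and 32.1% of input reads (15.9 to 52.4). The gene pgp-2 had under 20 input reads and was not among the 12. There 47 of 52 sorted reads (79.0% to 96.8%) and 9 of 19 input reads (24.5% to 71.1%) ended at -21 nt from the nearest annotated end, so the intervals were apart. The gene mrp-2, with 13 input reads, was also outside the 12. Its site at -13 nt took 23.8% of sorted reads (8.22 to 47.2) and 100% of input reads (75.3 to 100). Its site at -3551 nt took 57.1% of sorted reads (34.0 to 78.2) and 0% of input reads (0 to 24.7). At both sites of mrp-2 the intervals were apart.

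In mrp-5, pgp-5, mrp-4, wht-7 and pgp-6 the intervals of each site's share overlapped between the libraries. In mrp-5 the main site at 2 nt took 88.7% of sorted reads (86.2 to 90.9) and 88.1% of input reads (84.6 to 91.0), and a site at -333 nt took 8.28% and 9.29%. In pgp-5, the gene with the highest ratio, 105 of 113 sorted reads and 21 of 22 input reads ended at a single site at -103 nt from its last annotated end. In mrp-4, whose ratio over all its reads was below 1 and not past the rule, the main site was at -91 nt. That site took 57.5% of sorted reads (45.4 to 69.0) and 68.1% of input reads (62.3 to 73.5), and the site at -8 nt took 41.1% and 26.6%. In wht-7 the sites at -43 and -71 nt took 73.1% and 17.7% of sorted reads, against 74.7% and 16.8% of input reads. In pgp-6 the reads were spread over 4 sites, 1 of them in coding sequence with 18 of 64 sorted reads and 11 of 31 input reads.

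**Figure D5:**
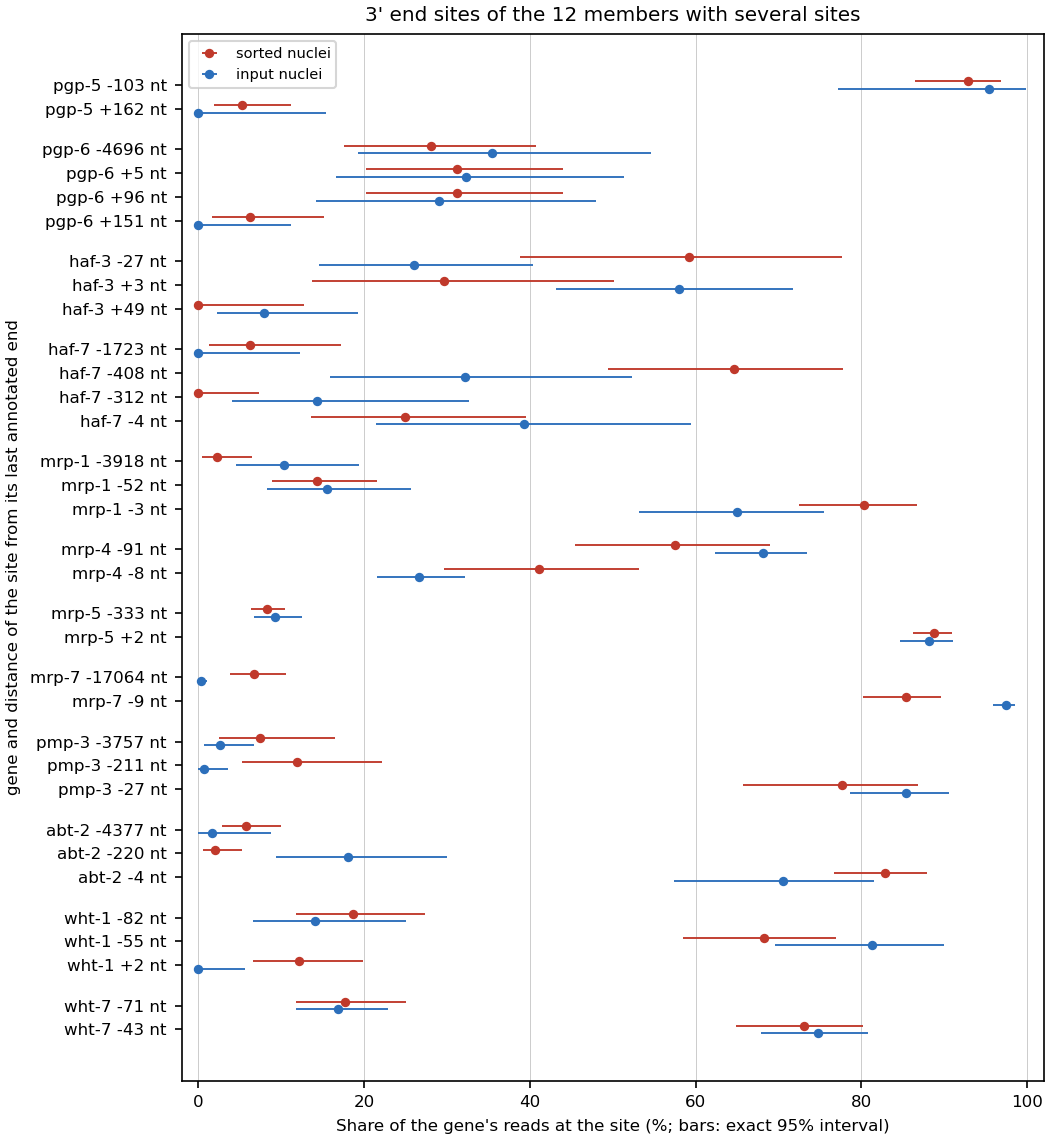
Share of each gene's reads at its 3' end sites in sorted nuclei and in input nuclei, for the 12 ABC transporter genes with 2 or more sites, with exact 95% intervals. No site differs by 20 percentage points with intervals apart, and haf-3 (59.3% in sorted nuclei, 26.0% in input nuclei at -27 nt) and haf-7 lie farthest from equal shares.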

How the data were processed

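The authors deposited, for each of the 2 libraries, unscaled whole-number read counts for every position on either strand. Per the labels' protocols, reverse transcription started from oligo(dT) with 24 T, and the RNA was then amplified linearly and by 12 PCR cycles. Per the submitters' processing notes, TopHat was used. Its version is not given in the sources used here, and neither is the genome build.

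Positions were moved by the commonest offset (-7 to 120 nt, and up to 4612 nt in the last 3 windows of V) to annotated ends of WBcel235 (Ensembl release 115) in 203 windows of 0.5 Mb, found from positions with at least 10 reads. Reads were summed per gene, strand by strand, over the gene span plus 300 nt. Positions in 2 gene spans, or in no span and 2 extensions, were left out (0.890% of sorted reads and 1.15% of input reads). A position in the span of a gene and in the extension of another was given to the gene whose span held it. Genes needed 20 reads over both libraries. Log2 ratios had 0.5 reads added to each count. Exact intervals were computed with scipy 1.17.1. With 1 library per group no model was fitted, and edgeR 4.0.16 and DESeq2 1.42.0 gave only the alternative scalings. The scripts were tested on simulated data.

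The genes and lists were chosen with earlier results of these data known. Every measured ABC transporter gene could be named, and from the other lists the called genes with the most reads. The genes named from those lists as not called were chosen after their values were seen.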

Additional observations from a re-analysis of the deposited data

Results flagged for a closer look

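Reads on the strand opposite to the ABC transporter genes enter no value above. The 45 genes held 180 such reads in sorted nuclei and 68 in input nuclei, in 27 of the genes. In 10 genes there were more than the 3 reads set as the limit of a count of 0 in at least 1 library, and each gene is given here for that reason. The highest counts were 55 sorted and 6 input reads opposite pmp-2, spread over 19 positions, with 23 of these reads inside annotated noncoding genes. Opposite wht-3 there were 49 sorted and 13 input reads, of which 40 and 9 ended at a single position. Opposite mrp-3 there were 17 sorted and 7 input reads, and opposite haf-2 there were 10 and 8. Smaller counts were 8 sorted and 2 input reads opposite mrp-7, 7 and 2 opposite pgp-2, 6 and 0 opposite pgp-10, and 4 and 4 opposite abt-2. Input reads were more numerous opposite mrp-8, with 2 sorted and 8 input reads, and opposite mrp-5, with 0 and 7. The source of these reads was not tested.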

How the results depend on the processing

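The main limits are 1 library per group and 3 reads as the limit of a count of 0. No paired analysis was possible because each group has 1 library. The number of ABC transporter genes called higher was 13 of 31 measured. It was 10 of 31 with TMM or median-of-ratios scaling (32.26%, against 12.04% and 12.31% of all measured genes). With no downstream extension it was 9 of 26 (34.62%, against 13.14%). With only positions near an annotated end it was 9 of 24 (37.5%, against 12.95%). Over all alternatives but 1 it was 9 to 14. The exception was counting each position once, which leaves out how many reads a position held and so cannot tell amplified copies from separate molecules. It gave 0 genes higher and 0 lower at 2-fold and 0 higher at 4-fold, and called 0.530% of all genes higher. With at least 50 reads required, 0 were called lower, since wht-4 was under the minimum. The median log2 ratio stayed between 0.64 and 1.66. The count of genes with a shifted site, 0, was 2 with sites of 10 nt and 4 with a difference of 10 points. In pmp-5 a site at -18 nt then took 0 of 194 sorted reads and 30 of 128 input reads, and in wht-2 a site at -1 nt took 64 of 66 sorted reads and 46 of 60 input reads. Of 420 ratios under alternatives, 399 kept their call, 21 lost it and 0 changed direction past the rule. Settings that changed only a minimum of reads left each ratio as it was, so no call could change there. Genes that were neither in the main count are among the 420, and ratios of genes under a setting's minimum are not. The calls of pgp-5, pmp-4 and wht-4 held in each of the 13 settings in which they could be computed. All 3 were under the minimum when each position was counted once, where every called gene still measured lost its call. With only positions near an annotated end pgp-5 had 0 reads in either library, so its call could not be assessed there. The call of pgp-6 was also lost with no downstream extension (1.52 to 7.34). Requiring 20 input reads, and leaving out positions in coding sequence and introns, were chosen after seeing the data.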
